A study of Mus musculus with 6 samples.

Results

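Autophagy is the route by which a cell encloses its own proteins and organelles in a double membrane, the autophagosome, and delivers them to the lysosome for breakdown. A kinase complex around ULK1 starts the membrane, a lipid kinase complex around beclin 1 marks it, and small ubiquitin-like proteins of the LC3 and GABARAP families are attached to its lipids, where cargo receptors bind them. In skeletal muscle autophagy clears mitochondria and damaged proteins, and in mice several of its genes are known targets of FoxO transcription factors during wasting. Transcript levels do not measure how fast autophagosomes form or are degraded.

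The 37 genes described here encode this machinery. They were taken by name from the 22187 rows of the deposited gene table, and each name matched 1 row. Tissue was whole left gastrocnemius, a calf muscle, from male C57BL/6J mice of 12 weeks. In the denervated group (n = 3 mice) the left sciatic nerve had lost a piece of 2 mm, and muscle was collected 2 weeks later. The control group (n = 3 mice) had no such operation, so surgery and loss of the nerve cannot be told apart. The study asked how transcripts change while muscle wastes after it loses its nerve, and muscle mass was not analysed here.

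Levels are on the scale of TPM, a relative abundance that takes gene length into account, times 1 factor for each library, so genes can be compared with each other. The number of reads behind a value is unknown. Fold changes are denervated minus control on log2(level + 1), which understates the change of low genes, with the standard error (SE). They were tested with limma over all 12392 genes that reached a level of 0.5 in at least 3 of the 6 libraries, and a gene was called at an adjusted p below 0.05. All 37 members passed that filter.

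Whole muscle was the sample, so in every value below fewer cells of a type and less RNA per cell cannot be told apart. The defining fibre markers were abundant in both groups, with Acta1, skeletal muscle actin, at 4865 ± 686 in denervated mice and 10782 ± 1264 in controls (SD, n = 3 each). The summed level of 8 fibre markers was 11124 to 13469 in denervated mice and 32552 to 36921 in controls, and all 8 were called lower. Of 9 tested macrophage markers 7 were called higher and 0 lower, with a summed level of 54.5 to 64.5 in denervated mice and 24.6 to 32.1 in controls. All 7 endothelial, all 6 pericyte and smooth muscle and 4 of 6 fibro-adipogenic progenitor markers were called lower. All 3 tested adipocyte markers were called higher, as was S100a8, the 1 tested of 4 neutrophil markers. The other neutrophil markers were below the filter. Csf3r overlapped, at 0.332 to 0.453 in denervated mice and 0.102 to 0.709 in controls. S100a9 was 0.449, 7.19 and 0 in denervated mice, against 0, 0.086 and 0.169 in controls. Retnlg was 0.098, 1.21 and 0.032 in denervated mice and 0 in every control. Of 4 tested markers each, Schwann cells had 1 higher and 1 lower, and satellite cells 2 higher and 1 lower. When libraries were scaled to equal protein-coding totals, 6 fibre, 3 endothelial, 3 pericyte and smooth muscle and 0 fibro-adipogenic progenitor markers were lower, and 1 pericyte and smooth muscle and 2 fibro-adipogenic progenitor markers higher, while all 9 macrophage markers were higher. The defining lymphocyte markers stayed at or near 0, at a summed level of 0.381 to 0.537 in denervated mice and 0 to 0.064 in controls. The part of these cell types in the results on autophagy genes was not tested.

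As deposited, members were called in both directions, and the shares called lay below those of all tested genes. In denervated muscle 7 of the 37 genes rose (18.9%) and 8 fell (21.6%), 15 called in all (40.5%). Among all tested genes 22.9% were called higher, 24.3% lower and 47.3% in either direction. The 22 others were not called, with log2 fold changes between -0.33 and 0.23. The median log2 fold change of the 37 genes was 0.05, beside -0.01 over all tested genes. Denervated and control mice did not overlap in 19 of the 37 genes (51.4%), beside 57.5% of all tested genes. The rises were Map1lc3a, Nbr1, Gabarap, Sqstm1, Atg7, Gabarapl1 and Becn1, and the falls were Optn, Tfeb, Rb1cc1, Ulk2, Atg9a, Atg4d, Atg4a and Pik3c3.

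**Figure D1:**
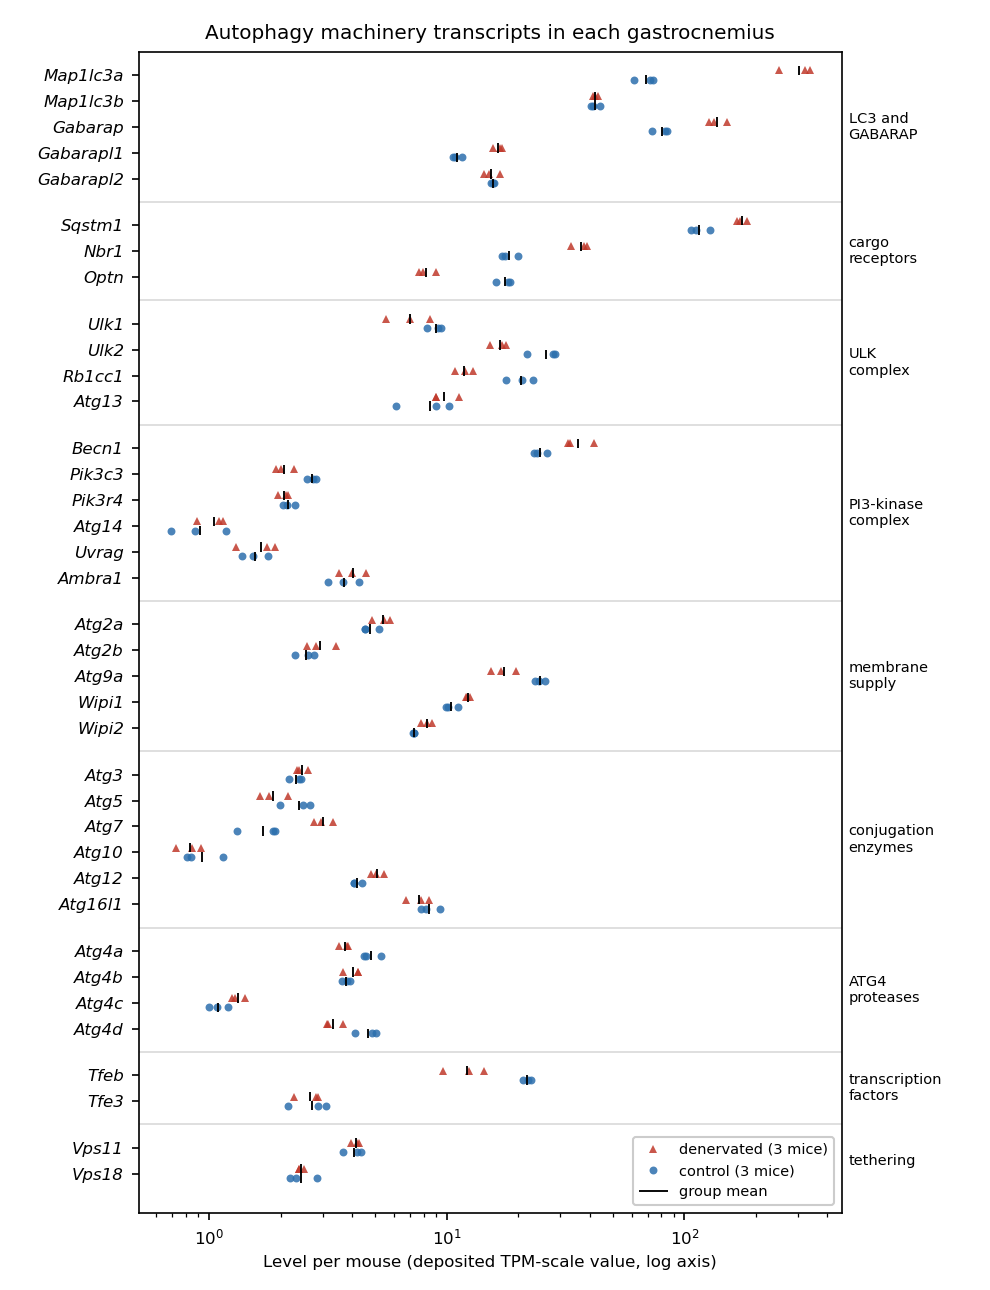
Level of each of the 37 autophagy genes in each mouse on a log axis (deposited TPM-scale value), with denervated mice as triangles above control mice as circles and black ticks at the group means, grouped by role. Map1lc3a stands farthest apart, with 251 to 336 in denervated mice against 61.2 to 74.0 in controls, while the points of Map1lc3b, Gabarapl2, Vps11 and Vps18 overlap.

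The calls lay mostly in the abundant genes. Of the 14 members with a mean level of 10 or more over all 6 libraries 11 were called (78.6%), and of the 23 below that level 4 were called (17.4%). Among all tested genes 66.8% of those at 10 or more and 41.5% of those below were called.

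Some directions depend on how the libraries are put on 1 scale. Protein-coding transcripts held 18.1% ± 0.770 of the total in denervated mice and 31.7% ± 0.977 in controls (SD, n = 3 each). Equal protein-coding totals moved the median log2 fold change of all genes to 0.60, and totals without the 20 most abundant genes moved it to 0.23. Under these scalings 33 and 20 members were called higher and 0 and 3 lower. Among all genes 9269 of 12588 tested and 5015 of 12422 tested were called higher, and 649 and 1599 lower. Of all calls 93.5% and 75.8% were higher, against 48.5% as deposited. Read against the median of all genes, the 7 risen members lay above it and the 8 fallen members below it under all 6 scalings tried. The log2 fold change itself kept its sign under all 6 for the 7 risen members and Optn, and turned positive with equal protein-coding totals for the 7 other fallen members. A fall therefore means here a fall as deposited and relative to the median gene.

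**Figure D2:**
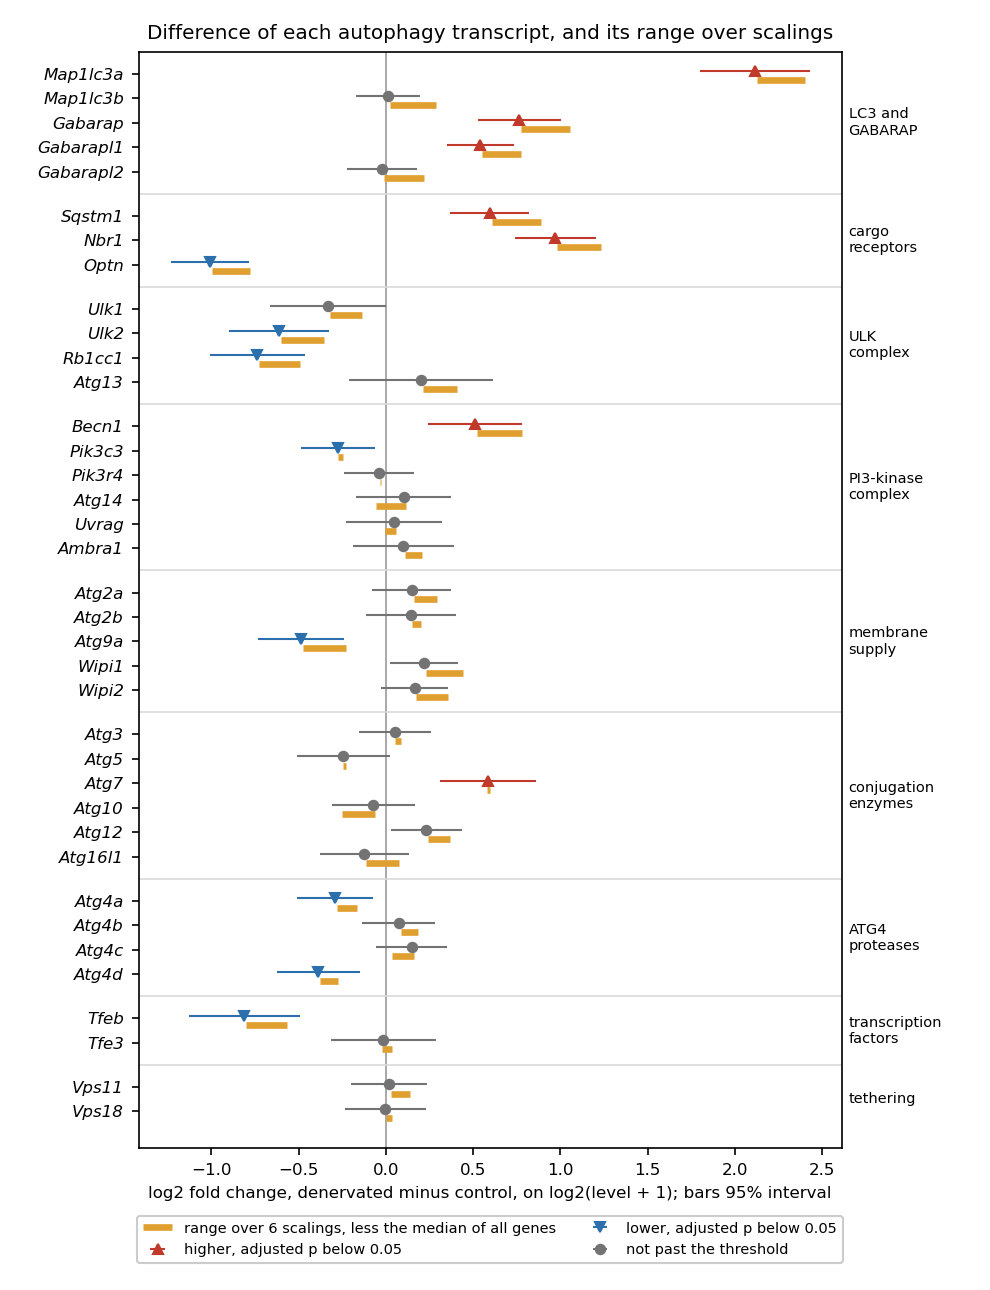
Log2 fold change of each member (denervated minus control, points) with its 95% interval from limma, and below each point, in yellow, the range of that value over 6 scalings after the median of all tested genes is taken off. Yellow bars of the called genes stay on the side of 0 on which the gene was called, for example 2.12 to 2.40 for Map1lc3a and -0.80 to -0.57 for Tfeb.

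The genes of the ubiquitin-like proteins gave the largest rise of the machinery. Map1lc3a encodes LC3A, a protein that is attached to the autophagosome membrane, and its level was 336, 251 and 322 in denervated mice, against 61.2, 71.5 and 74.0 in controls. Every denervated mouse was above every control, and the log2 fold change was 2.11 (SE 0.14, limma adjusted p = 1.6e-05). The gene stood at the 99.1 to 99.2 percentile of all tested genes in denervated mice and at the 96.0 to 96.6 percentile in controls. None of the 50-base words of its annotated transcripts occurs in an annotated transcript of another gene.

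Its paralogue Map1lc3b, which encodes LC3B, the form most used as an autophagosome marker, did not follow. Its level was 43.4, 41.9 and 41.4 in denervated mice, against 41.2, 40.4 and 44.2 in controls, with overlapping groups. The log2 fold change of 0.01 had a 95% interval of -0.17 to 0.20 (adjusted p = 0.922). It was called higher when the 20 most abundant genes were left out of the totals (0.35, adjusted p = 0.00767) and with equal protein-coding totals (0.89, adjusted p = 3.39e-05), where Map1lc3a was at 2.46 and 3.00. Relative to the median of all genes Map1lc3b lay between 0.02 and 0.29 over the 6 scalings. Within a library the ratio of Map1lc3a to Map1lc3b is free of any library factor, and it was 7.74, 5.98 and 7.78 in denervated mice, against 1.49, 1.77 and 1.67 in controls.

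The GABARAP genes, whose proteins act at a later step of autophagosome growth and closure, split in the same manner. Gabarap had 133, 127 and 150 in denervated mice, against 73.0, 84.7 and 82.9 in controls. Gabarapl1 had 16.7, 15.7 and 17.1 in denervated mice, against 11.6, 10.8 and 10.7 in controls. Neither gene had overlapping groups, and the log2 fold changes were 0.77 (SE 0.10, limma adjusted p = 0.000608) and 0.54 (SE 0.08, limma adjusted p = 0.00119). Of the words of Gabarapl1 23.1% also occur in a transcript of the opposite strand, 1700101I11Rik, which has no row in the table. Gabarapl2 had 16.7, 15.0 and 14.4 in denervated mice, against 15.3, 15.8 and 15.7 in controls, and these groups overlapped (log2 fold change -0.02, 95% interval -0.22 to 0.18). That value turned to 0.31 and 0.82 under the pair of scalings named for Map1lc3b, and both were called higher (adjusted p = 0.0206 and 9.43e-05).

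Together the 5 genes reached a summed level of 514 ± 54.9 in denervated mice and 218 ± 13.5 in controls (SD, n = 3 each). Map1lc3a made up 58.7% ± 2.99 of that sum in denervated mice and 31.6% ± 1.20 in controls. Gabarap, the most abundant of the 5 in each control, made up 26.8% ± 2.09 in denervated mice and 36.8% ± 0.986 in controls. The share of Map1lc3b was 8.28% ± 0.905 in denervated mice and 19.3% ± 1.13 in controls. All 5 shares lay apart between the groups, and an exact two-sided permutation test of 3 mice against 3 gave each a p of 0.1, the smallest it allows. The shares of a mouse are parts of 1 sum, so they are not 5 separate results. The share of Gabarap fell although its level rose.

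**Figure D3:**
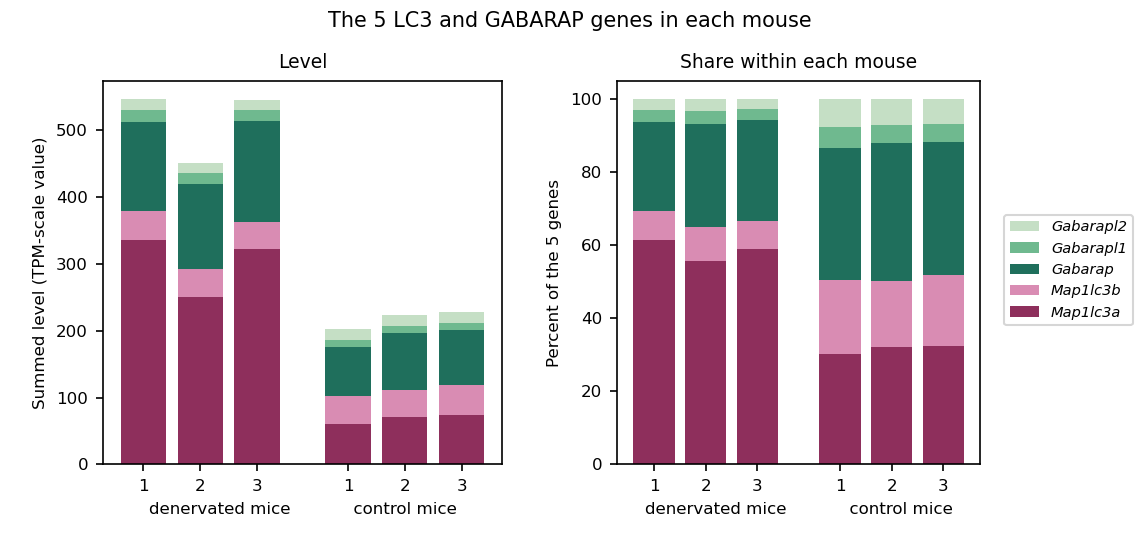
Levels of the 5 LC3 and GABARAP genes stacked for each mouse (left, TPM-scale value) and as a percentage of their sum (right), denervated mice left of control mice. The bottom segment, Map1lc3a, is 55.6% to 61.5% of the stack in denervated mice and 30.3% to 32.5% in controls, while the Map1lc3b segment is 41.4 to 43.4 high in denervated mice and 40.4 to 44.2 in controls.

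All 3 cargo receptors changed, in opposite directions. Nbr1 encodes a receptor that links ubiquitinated cargo to LC3, and its level was 38.0, 33.3 and 38.7 in denervated mice, against 19.9, 17.1 and 17.6 in controls (log2 fold change 0.97, SE 0.10, limma adjusted p = 0.00016). Sqstm1 encodes the related receptor p62 and was the most abundant member in every control. It had 183, 167 and 172 in denervated mice, against 128, 106 and 112 in controls (log2 fold change 0.60, SE 0.10, limma adjusted p = 0.00179). Mrnip, a gene on the opposite strand that shares 15.5% of the words of Sqstm1, was at 0.591 in denervated mice and 0.518 in controls.

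Optn encodes optineurin, a receptor for mitochondria and bacteria. It showed the steepest fall of the 37 genes, to 7.92, 9.04 and 7.66 in denervated mice, against 18.0, 18.4 and 16.1 in controls. No mouse of one group reached the range of the other, and the log2 fold change was -1.01 (SE 0.10, limma adjusted p = 0.000117). Its percentile among tested genes was 72.1 to 76.2 in denervated mice and 85.5 to 87.5 in controls. It was the only fallen member whose value stayed below 0 under all 6 scalings, although with equal protein-coding totals it was no longer called (-0.18, adjusted p = 0.132).

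Genes of the starting kinase complex were lower or not called. Rb1cc1 encodes the scaffold of the complex, and its level was 11.9, 12.9 and 10.8 in denervated mice, against 20.7, 17.7 and 23.1 in controls (log2 fold change -0.74, SE 0.12, limma adjusted p = 0.0015). Ulk2 encodes a kinase related to ULK1 and had 17.7, 15.2 and 17.1 in denervated mice, against 21.8, 28.1 and 28.5 in controls (log2 fold change -0.61, SE 0.12, limma adjusted p = 0.0048). Neither pair of groups overlapped. When the 20 most abundant genes were left out of the totals, Ulk2 was not called (-0.28, adjusted p = 0.102).

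Ulk1, the kinase that mTOR and AMPK are known to regulate, had 5.53, 7.01 and 8.54 in denervated mice, against 8.28, 9.50 and 9.21 in controls. The groups overlapped and the value of -0.33 was not called (adjusted p = 0.0918), but it was called without denervated mouse 3 (-0.46, adjusted p = 0.0261). Without denervated mouse 1 it was -0.19 (adjusted p = 0.254), and with equal protein-coding totals it was called higher (0.46, adjusted p = 0.0192). Atg13, the regulatory subunit, had 8.97, 9.02 and 11.3 in denervated mice, against 6.14, 9.01 and 10.3 in controls and was not called. The summed level of the 4 genes was 45.3 ± 2.07 in denervated mice and 64.1 ± 7.12 in controls (SD, n = 3 each).

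In the lipid kinase complex, which makes the phosphatidylinositol 3-phosphate of the growing membrane, 1 gene rose and 1 fell. Becn1 encodes beclin 1, the hub of the complex, and was its most abundant transcript. It had 41.5, 32.5 and 32.9 in denervated mice, against 24.1, 23.2 and 26.4 in controls, with no overlap (log2 fold change 0.51, SE 0.12, limma adjusted p = 0.00804). Of its words 36.8% occur in other genes, 20.2% in Cntd1 on the opposite strand, which was at 0.113 in denervated mice and 0.007 in controls.

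Pik3c3, the catalytic subunit, had 2.29, 1.92 and 2.00 in denervated mice, against 2.81, 2.73 and 2.57 in controls (log2 fold change -0.27, limma adjusted p = 0.0395). Its call was lost without any 1 of 5 libraries, all but denervated mouse 1, with adjusted p between 0.0639 and 0.106, and also with median-ratio scaling (adjusted p = 0.051), without the filter on low values (adjusted p = 0.0724), without the library factor (adjusted p = 0.127) and with the 20 most abundant genes left out of the totals (-0.03, adjusted p = 0.818). With equal protein-coding totals it was called higher (0.36, adjusted p = 0.00824). The 4 remaining genes were not called and their groups overlapped. Pik3r4, the regulatory subunit, averaged 2.07 ± 0.102 in denervated mice and 2.15 ± 0.125 in controls. Atg14 and Uvrag, which define separate forms of the complex, averaged 1.04 ± 0.136 and 1.65 ± 0.311 in denervated mice, against 0.911 ± 0.245 and 1.55 ± 0.197 in controls. Ambra1, a regulator that binds beclin 1, averaged 4.02 ± 0.534 in denervated mice and 3.69 ± 0.558 in controls (SD, n = 3 each).

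Among genes of membrane supply Atg9a fell. It encodes a membrane protein that carries lipid scramblase activity on vesicles, and its level was 17.0, 15.4 and 19.6 in denervated mice, against 23.4, 25.9 and 24.4 in controls (log2 fold change -0.48, SE 0.11, limma adjusted p = 0.00694). A same-strand transcript, Gm29253, holds 29.8% of its words and has no row in the table, and Atg9a was not called when the 20 most abundant genes were left out of the totals (-0.15, adjusted p = 0.277) and was called higher with equal protein-coding totals (0.37, adjusted p = 0.0128). Wipi1 and Wipi2, which bind the lipid made by the kinase complex, were not called although their groups lay apart. Wipi1 had 12.5, 12.2 and 12.0 in denervated mice, against 9.91, 11.2 and 10.1 in controls (adjusted p = 0.0634). Wipi2 had 8.29, 7.78 and 8.70 in denervated mice, against 7.29, 7.26 and 7.21 in controls (adjusted p = 0.135). Both were called once the library factor was taken out (adjusted p = 0.0325 and 0.0485) and under the pair of scalings named above. Atg2a and Atg2b, the lipid transfer proteins, had overlapping groups, with log2 fold changes of 0.15 each.

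Of the 6 conjugation genes, whose products take part, directly or not, in attaching LC3 and GABARAP to lipid, only Atg7 was called. Atg7 encodes the activating enzyme and had 3.31, 2.95 and 2.76 in denervated mice, against 1.31, 1.85 and 1.90 in controls. The groups lay apart, and the log2 fold change was 0.58 (SE 0.12, limma adjusted p = 0.00497). Atg12, a ubiquitin-like protein joined to Atg5, had 5.43, 5.01 and 4.82 in denervated mice, against 4.09, 4.06 and 4.40 in controls. It was not called (0.23, adjusted p = 0.0599), but passed among genes with a mean level of 1 or more (adjusted p = 0.047), without the library factor (adjusted p = 0.0321) and under the pair of scalings named above. The other 4 had overlapping groups. Atg3 and Atg10 encode conjugating enzymes, and Atg5 and Atg16l1 encode parts of the complex that directs conjugation to the membrane. Their log2 fold changes were 0.05, -0.07, -0.24 and -0.12 in that order.

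A promoter window of Atg7 is shown because it belongs to a risen gene and holds GTCACGTG, the core of the element that TFEB is known to bind. Promoter windows came from RefSeq (GRCm38.p6, 250 bases before and 50 after the start of a gene). At least 1 was listed for 30 of the 37 members. Atg16l1, Pik3c3, Becn1, Map1lc3a, Rb1cc1, Atg12 and Vps11 are not among them. The 30 members had 36 windows, and a gene was counted if any of its windows held a motif. A start below is that of the window, and whether it is the main start of its gene was not tested. CACGTG was found on either strand in 4 of these 30 (13.3%), Atg3, Atg5, Atg7 and Atg14, and in 8.09% of all 27025 genes in the table. The longer GTCACGTG, which contains CACGTG, was found in Atg3, Atg7 and Atg14 (10%) and in 2.55% of all genes. TTGTTTAC, a motif of FoxO factors, was found in 0 of the 30 and in 1.32% of all genes. These shares were not tested against each other, and the 27025 genes, unlike the members, were not filtered by level. Below are the 250 bases before the start of Atg7 (chr6:114670846-114671095, plus strand) and 30 bases around the motif in the 3 others, each 5′ to 3′ on the strand of its gene. Capitals mark GTCACGTG in Atg7 and CACGTG in the rest. The motif begins 134 bases before the start in Atg7. It begins 94 bases before the start in Atg3 (chr16:45158723-45158752, plus strand), which holds another 71 bases before. In Atg5 (chr10:44268313-44268342, plus strand) it begins 14 bases and in Atg14 (chr14:47568418-47568447, minus strand) 1 base before.
Atg7: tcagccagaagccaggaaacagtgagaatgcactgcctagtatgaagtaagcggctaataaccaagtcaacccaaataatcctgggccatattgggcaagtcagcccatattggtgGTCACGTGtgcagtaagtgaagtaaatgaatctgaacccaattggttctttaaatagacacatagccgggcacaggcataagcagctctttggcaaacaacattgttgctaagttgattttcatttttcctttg
Atg3: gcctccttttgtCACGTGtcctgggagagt
Atg5: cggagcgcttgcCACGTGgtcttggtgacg
Atg14: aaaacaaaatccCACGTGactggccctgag

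Of these 4 genes with CACGTG, Atg7 was called higher and Atg3, Atg5 and Atg14 were not called. A match describes the letters of the window and is not evidence that a factor binds there.

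Tfeb and Tfe3 encode related transcription factors that drive genes of the lysosome and of autophagy. Tfeb had 12.4, 9.63 and 14.4 in denervated mice, against 22.6, 20.9 and 21.9 in controls. All denervated mice were below all controls, with a log2 fold change of -0.81 (SE 0.14, limma adjusted p = 0.002). Relative to the median of all genes it lay between -0.80 and -0.57 over the 6 scalings. Tfe3 had 2.28, 2.87 and 2.82 in denervated mice, against 3.11, 2.87 and 2.14 in controls, and was not called (-0.01, 95% interval -0.32 to 0.29). Activity of these factors is known to be set largely by their location in the cell, which transcript levels do not show.

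Among the ATG4 proteases, which trim LC3 and GABARAP proteins before conjugation and release them afterwards, 2 fell and 0 rose. Atg4d had 3.17, 3.14 and 3.65 in denervated mice, against 4.13, 5.02 and 4.83 in controls (log2 fold change -0.39, limma adjusted p = 0.0158), and the call was lost without control 2, control 3 or denervated mouse 1 (adjusted p between 0.0513 and 0.056). Atg4a had 3.82, 3.83 and 3.51 in denervated mice, against 4.57, 4.48 and 5.29 in controls (log2 fold change -0.29, limma adjusted p = 0.036). Its call was lost without any 1 library but control 2 (adjusted p between 0.0557 and 0.116) and without the filter on low values (adjusted p = 0.0559). It was lost as well without the library factor (adjusted p = 0.0942) and with the 20 most abundant genes left out of the totals (-0.01, adjusted p = 0.955), where Atg4d was not called either (-0.11, adjusted p = 0.435). Equal protein-coding totals put both above 0, with adjusted p of 0.00321 for Atg4a and 0.0199 for Atg4d. Of the words of Atg4a 51.2% occur in the near copy Atg4a-ps, which was at 0 in denervated mice and 0.0247 in controls. Atg4b, in the mouse the protease of broadest action, averaged 4.04 ± 0.324 in denervated mice and 3.78 ± 0.148 in controls. Atg4c averaged 1.32 ± 0.0833 in denervated mice and 1.09 ± 0.0990 in controls (SD, n = 3 each). Neither was called.

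Vps11 and Vps18, shared core subunits of the complexes that tether membranes before fusion with the lysosome, showed overlapping groups. Vps11 averaged 4.14 ± 0.17 in denervated mice and 4.08 ± 0.369 in controls. Vps18 averaged 2.43 ± 0.0626 in denervated mice and 2.44 ± 0.341 in controls (SD, n = 3 each). Their 95% intervals on the log2 scale were -0.20 to 0.23 and -0.23 to 0.23.

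Ratios between related genes within a mouse do not depend on a factor for its library, and 8 were compared. In 5 of them the groups lay apart. The log2 ratio of Map1lc3a to Map1lc3b was 2.83 ± 0.218 in denervated mice and 0.71 ± 0.128 in controls. That of Tfeb to Tfe3 was 2.18 ± 0.380 in denervated mice and 3.03 ± 0.282 in controls, and that of Atg4d to Atg4c 1.33 ± 0.199 in denervated mice and 2.09 ± 0.113 in controls. The shift of Atg4b over Atg4a was smaller, at 0.12 ± 0.166 in denervated mice and -0.33 ± 0.188 in controls, and Gabarapl1 over Gabarap had -3.05 ± 0.0761 in denervated mice and -2.86 ± 0.178 in controls (SD, n = 3 each). The difference in the last of these, -0.19, was -0.09 without control 1. Ulk1 over Ulk2, Wipi1 over Wipi2 and Atg2a over Atg2b overlapped between groups. An exact two-sided permutation test gave p = 0.1 for each of the 5, or 0.16 adjusted over the 8, and 3 mice against 3 cannot go below 0.1.

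**Figure D4:**
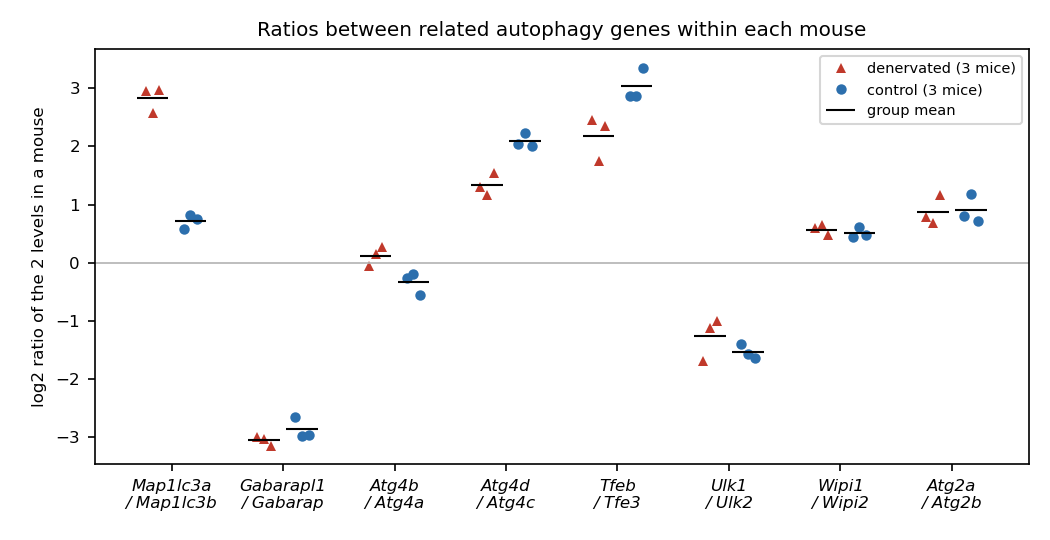
Log2 ratio of the levels of 2 related genes in each mouse, denervated mice (triangles) left of control mice (circles), with lines at the group means. The pair Map1lc3a and Map1lc3b is farthest apart, with group means of 2.83 in denervated and 0.71 in control mice, and the last 3 pairs overlap.

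Other genes of the pathway were also called in both directions. Of 29 tested genes with further roles in autophagy 4 rose, 5 fell and 20 were not called. Both shares called lay below the 22.9% higher and 24.3% lower of all tested genes. Their median was -0.05 on the log2 scale, beside -0.01 for all tested genes. Scaled to equal protein-coding totals, 26 of the 29 rose and 0 fell, beside 9269 and 649 of all 12588 genes tested. With the 20 most abundant genes left out of the totals 14 rose and 3 fell, beside 5015 and 1599 of all 12422 genes tested. Under these scalings the upstream regulators below had 14 higher and 1 lower, and 10 and 3, and the lysosome genes 16 and 0, and 14 and 1. Sh3glb1, a membrane-bending partner of beclin 1 and UVRAG, averaged 92.4 ± 12.3 in denervated mice and 62.8 ± 4.85 in controls. Rab7, a small GTPase of late endosomes, averaged 13.1 ± 1.94 in denervated mice and 29.6 ± 3.11 in controls (SD, n = 3 each). Nrbf2, a subunit of the beclin 1 complex, and Atg101, a partner of Atg13 listed as 9430023L20Rik, fell by 0.69 and 0.62 on the log2 scale, and Wdr45b (listed as Wdr45l) and Tax1bp1 each rose by 0.30. Atg9b, the paralogue of Atg9a, was below the filter at 0.129 in denervated mice and 0.125 in controls.

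Genes of mitophagy, the removal of mitochondria, had 1 of 9 higher and 4 lower (median -0.23), beside 22.9% and 24.3% of all tested genes. With equal protein-coding totals the counts were 7 higher and 0 lower (median 0.53), and with the 20 most abundant genes left out of the totals 2 and 2 (median 0.07). Pink1, the kinase that marks damaged mitochondria, averaged 92.1 ± 5.15 in denervated mice and 146 ± 3.73 in controls. Mul1, a ligase, and Fundc1, a receptor of the outer membrane, had log2 fold changes of -0.96 and -0.53, and Fkbp8, another receptor, had 0.59. With equal protein-coding totals the values of Pink1, Fundc1 and Bnip3 turned positive, while all 4 fallen genes stayed below the median of all genes under the 6 scalings.

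Upstream regulators held 8 higher and 7 lower of 20 (median 0.10), beside 22.9% and 24.3% of all tested genes. Prkaa2, the AMPK catalytic subunit of mature muscle, averaged 4.62 ± 0.495 in denervated mice and 20.4 ± 0.872 in controls, a log2 fold change of -1.93 that lay between -1.93 and -1.13 under the 6 scalings. Its paralogue Prkaa1 averaged 4.09 ± 0.514 in denervated mice and 2.54 ± 0.0581 in controls (SD, n = 3 each). Sesn3, a stress protein that restrains mTOR, rose by 1.47 on the log2 scale, Foxo1 by 0.84 and Rptor, a subunit of mTOR complex 1, by 0.79. Fnip1 and Rragd, parts of the nutrient sensing at the lysosome, fell by 0.83 and 0.75.

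Lysosome genes had 7 of 17 higher and 2 lower (median 0.30), beside 22.9% and 24.3% of all tested genes. Atp6v1a, a subunit of the proton pump, averaged 9.81 ± 0.0266 in denervated mice and 4.0 ± 0.722 in controls. Cd63, a membrane protein of late endosomes, and Hexa, a hydrolase, rose by 0.98 and 0.79 on the log2 scale. Psap, the precursor of the saposins, averaged 103 ± 4.09 in denervated mice and 195 ± 10.1 in controls (SD, n = 3 each). Lamp1, a protein of the lysosome membrane, was called lower at -0.25 as deposited, but with equal protein-coding totals it lay 0.03 above the median of all genes. Macrophages also express lysosome genes, and most of their tested markers rose in the same mice as given above. The part of macrophages in the levels of lysosome genes was not tested.

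**Figure D5:**
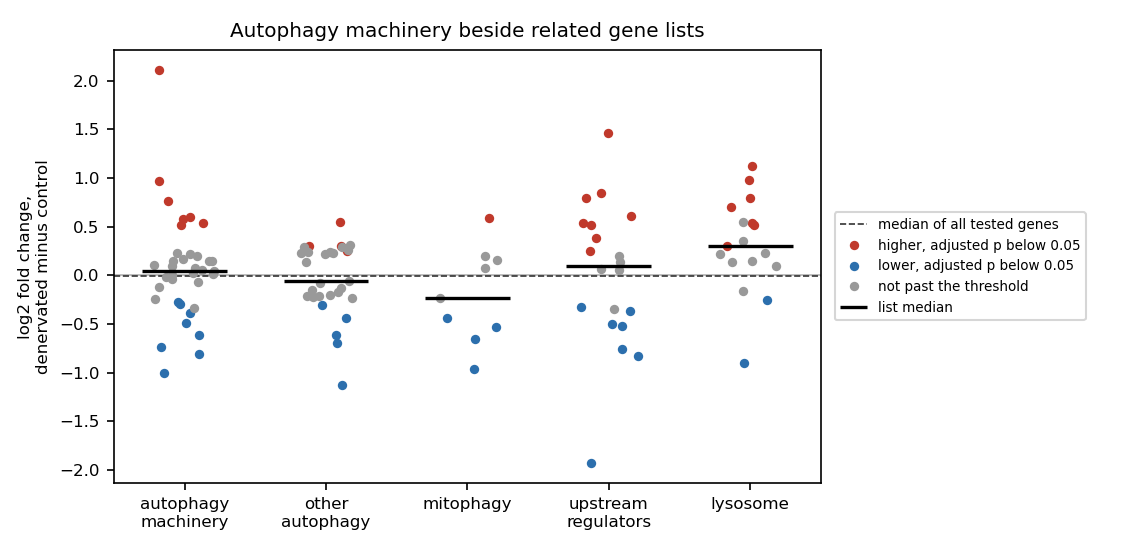
Log2 fold change (denervated minus control) of each tested gene in the machinery and in 4 related lists, coloured by call, with black lines at the list medians and a dashed line at the median of all tested genes. The list medians run from -0.23 for mitophagy to 0.30 for lysosome genes, and each list holds called genes on both sides of 0.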

How the data were processed

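The authors deposited 1 table of 22187 genes with 6 columns of expression signal whose unit no header names. Below 100, all values above 0 were whole multiples (within 0.00055) of 0.01 times a library factor of 0.977 to 1.13, so the deposited signal was read as TPM times that factor. Column totals set the search, so they are no separate support. The submitters' processing notes name RSEM 1.3.0, edgeR 3.12.1, Bowtie2 2.2.9 and the build NCBIM37 without role or order. The sources used here give neither strandedness nor annotation. Per the labels, reads were paired-end of 50 bp. Depth is unknown, so no counting interval was computed.

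Values were used as deposited on log2(level + 1). The comparison of denervated with control mice used limma 3.58.1 under R 4.3.3 (lmFit, eBayes with trend, two-sided, 4 residual degrees of freedom), with Benjamini-Hochberg adjustment over 12392 genes at 0.5 or more in at least 3 libraries. The fit was tested on simulated data, in which far fewer genes changed than were called here. It recovered 24 of 66 changes of 0.5 on the log2 scale (36.4%), and 59 of 67 changes of 1 (88.1%), with 10 false calls. Fewer changed genes make the adjustment stricter, so these shares may not hold for the data. A member that was not called may still have changed by a small amount. Each mouse is 1 replicate. Same-numbered mice did not deviate together, so numbers were not used as pairs.

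Members and lists were chosen with earlier results of these data known. All members are accounted for, and related lists give up to 3 called genes in each direction by size. Atg9b, Prkaa1 and Bnip3 were chosen after their values were seen. Gene names are the table's, with 5 of 174 list genes matched by identifier. Shared 50-base words were counted in GENCODE M21 transcripts (GRCm38) on both strands.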

Additional observations from a re-analysis of the deposited data

How the results depend on the processing

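Leaving out each library in turn kept 7 members called higher and 5 to 7 called lower, against 8 with all mice. It gave 4846 to 5298 called genes in all (5857 with all mice), a median of the members between 0.02 and 0.06, and a rise in the Map1lc3a share of 25.7 to 28.7 percentage points (27.1 with all mice). Without control 3 the lower members numbered 5, which is the most that any 1 library moved a count of members. The 7 risen members and 5 of the 8 fallen ones passed without each library in turn.

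Totals without the 20 most abundant genes gave 20 members higher, 3 lower and a member median of 0.30, and Gabarapl2 turned to 0.31. Equal protein-coding totals gave 33 higher and 0 lower by limma (also 0 lower at an unadjusted p below 0.05), a median of 0.68 and 9918 called genes. The log2 fold change then turned positive for Gabarapl2 (0.82), Ulk1 (0.46), Ulk2 (0.24), Rb1cc1 (0.11), Pik3c3 (0.36), Pik3r4 (0.57), Atg9a (0.37), Atg5 (0.36), Atg10 (0.35), Atg16l1 (0.67), Atg4a (0.43), Atg4d (0.33), Tfeb (0.031), Tfe3 (0.63) and Vps18 (0.63). Both scalings divide by totals that differ between the groups, and which scale is right was not tested. The Atg2a to Atg2b ratio had no stable sign, with a difference of -0.17 to 0.12 on leaving out single libraries and 0.032 with quantile normalization, against -0.02.

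The replicate block gave 7 members higher, 6 lower and 5408 genes in all, with Pik3c3 and Atg4a not called (adjusted p = 0.0695 and 0.0796). Correlations of deviations between same-numbered mice were -0.01, -0.10 and 0.02. Pseudocounts of 0.1 and 0.01, eBayes without trend or with robust variances, quantile normalization and 1 row per set of identical rows changed no call among the members. Without the filter on low values Pik3c3 and Atg4a were not called, and a filter at a mean level of 1 leaves out Atg10 and Atg14. TPM without the library factor gave 10 members higher and 6 lower, with Wipi1, Wipi2 and Atg12 gained and Pik3c3 and Atg4a lost. TPM without the library factor and 1 row per set of identical rows were chosen after seeing the data. Unknown depth limits what the 12 members with a control mean below 3 can show.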
